A study of Homo sapiens with 24 samples.

Results

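TWIST2 regions without any other peak were places where tagged TWIST2 was found in both Ty1 libraries of RD cells and where no H3K27ac, MYOD or SMARCA4 peak was called in any library. Overlapping peaks of both Ty1 lists (1 bp or more) were joined, and a joined region with a peak in both lists is called a TWIST2 region. Of 48591 TWIST2 regions, 18622 (38.3%) overlapped no peak of the 12 other lists, and these are called TWIST2-only regions here. The name stands for the absence of a called peak of the 3 other antibodies and nothing more. The other 29969 TWIST2 regions, called marked regions, overlapped at least 1 such peak. Because peak presence chose the TWIST2-only regions, their number and their lack of other peaks are a description and were not tested.

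ChIP-seq, the sequencing of DNA fragments pulled down with an antibody, was carried out in RD, an established line of fusion-negative rhabdomyosarcoma, a tumour of cells halted on the way to skeletal muscle. The tagged samples, labelled 3xTy1-TWIST2, carried TWIST2 with a Ty1 epitope and were precipitated with a Ty1 antibody in 2 libraries. TWIST2 knockdown (KD) samples were set against control samples for H3K27ac, MYOD and SMARCA4, with 2 KD and 2 control libraries for each antibody. All groups were RD cells, and the Ty1, H3K27ac and MYOD samples belonged to the set labelled RD-1 and the SMARCA4 samples to RD-2. The tagged samples were neither KD nor control samples, so TWIST2-only regions do not show where untagged TWIST2 lay in those samples. How the tag was introduced, how strongly tagged TWIST2 was expressed, how the knockdown was made and whether replicates were separate cultures are not given in the sources used here, so any spread over libraries may be technical. A Ty1 precipitation of untagged cells was not used here, so the share of TWIST2-only regions that are unspecific Ty1 peaks is not known.

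TWIST2 is a basic helix-loop-helix transcription factor that pairs with E proteins and binds E-box DNA, and it is known for holding mesenchymal and muscle progenitor cells back from differentiation. MYOD is a basic helix-loop-helix factor that binds E-boxes too and drives the muscle programme. H3K27ac marks active promoters and enhancers, and SMARCA4 is an ATPase of the SWI/SNF remodelling complexes that open chromatin. All positions are in build hg19 (GRCh37). No genome or annotation of that build was used, so neither genes nor sequences are given.

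The Ty1 lists held 74087 peaks in replicate 1 and 71100 in replicate 2, and 18622 peaks of each lay in TWIST2-only regions, 25.1% and 26.2% of the lists. Every TWIST2-only region held exactly 1 peak per library. The centres of both peaks lay a median of 31 bp apart in TWIST2-only regions and 34 bp apart in marked regions, and 69.2% of TWIST2-only and 66.05% of marked regions had centres within 50 bp of each other. By this measure the peaks of TWIST2-only regions lay no farther apart between libraries than those of marked regions. TWIST2-only regions were 239 to 469 bp wide with a median of 266 bp, against a median of 269 bp for marked regions. Ty1 peaks had a fixed width of 239 bp in replicate 1 and 231 bp in replicate 2. The width of a region with 1 peak per library therefore restates the distance between the centres. Ty1 peaks that did not repeat lacked other peaks more often. Of regions found in Ty1 replicate 1 alone, 14019 of 25495 (55.0%, 95% Wilson interval 54.4 to 55.6) had no other peak. Of those in replicate 2 alone, 11344 of 22508 (50.4%, 49.8 to 51.05) had none, whereas the share was 38.3% (37.9 to 38.8) for regions in both libraries. These intervals cover counting error only, and regions are not replicates, so no test was made between classes of regions here or below.

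The border between TWIST2-only and marked regions was narrow for few regions. At the inner edge lay TWIST2-only regions on chromosome 1 (119506087 to 119506388), chromosome 3 (18166038 to 18166276) and chromosome 4 (114101216 to 114101454). Each touched another peak with 0 bases between them. At the outer edge, the region on chromosome 7 from 1782762 to 1783044 overlapped another peak by 1 base, and those on chromosome 1 from 208548035 to 208548293 and chromosome 2 from 9878766 to 9879104 by 2 bases. Each of these 3 was barred by 1 of the 12 libraries. In all, 228 TWIST2-only regions (1.22%) had another peak within 50 bases, and 291 marked regions overlapped other peaks by at most 50 bases. A peak in 1 of 12 libraries was enough to bar 3310 regions, 11.04% of the marked ones. H3K27ac alone barred 4976 regions (10.2% of all TWIST2 regions), MYOD alone 3040 (6.26%) and SMARCA4 alone 916 (1.89%).

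TWIST2-only regions were most common among the TWIST2 regions lowest in the Ty1 lists and persisted among the highest. The Ty1 files hold no score, so the place of a peak in its list was used, as a percentile with 100 at the top. In the SMARCA4 lists, which do hold values, this order is that of the tag count, with ties in chromosome order. The Ty1 lists show the same repeating chromosome order in 173 and 176 blocks, and the percentile was averaged within each block. What the Ty1 order stands for is not stated in the files. TWIST2-only regions had a median percentile of 49.8 in replicate 1 and 47.2 in replicate 2, against 69.6 and 67.0 for marked regions. TWIST2 regions with H3K27ac and MYOD in all 4 libraries of each stood at 80.6 and 79.1, and those with H3K27ac in all 4 and no MYOD peak at 73.85 and 73.1. Ranked within replicate 1, 63.4% of the lowest decile of TWIST2 regions were TWIST2-only and 21.2% of the highest. In replicate 2 the shares were 63.4% and 23.01%. In both libraries each decile had a lower share than the decile beneath it. The comparison above with regions found in 1 Ty1 library alone took no account of list position.

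**Figure D1:**
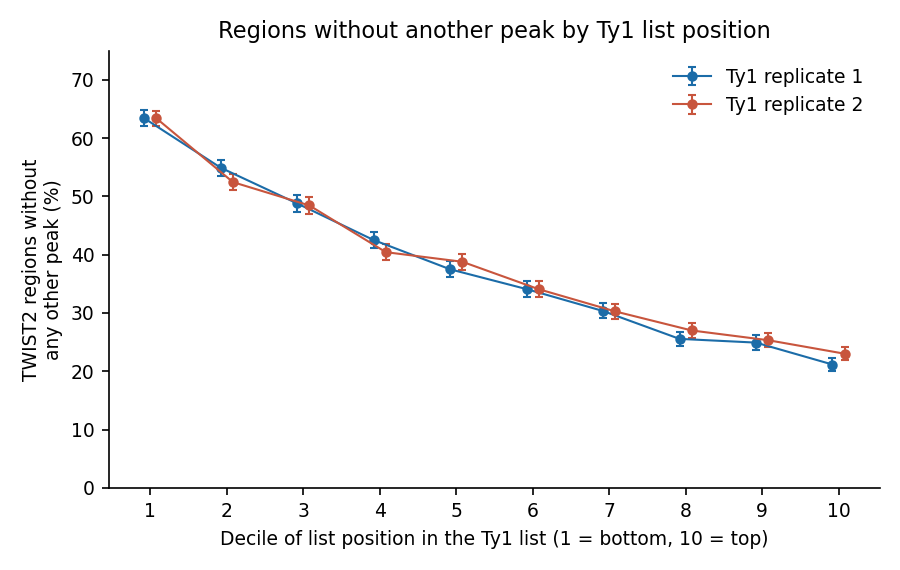
Share of TWIST2 regions without any other peak (y axis, percent) by decile of list position (x axis, 1 lowest), with 95% Wilson intervals. The deciles divide the 48591 TWIST2 regions, ranked within each Ty1 list, so peaks found in 1 library alone are left out. Both libraries run from 63.4% in decile 1 to 21.2% (replicate 1) and 23.01% (replicate 2) in decile 10.

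Some TWIST2-only regions stood at the top of both Ty1 lists. Ordered by the mean of both percentiles, 26 of the first 100 TWIST2 regions were TWIST2-only, and 208 of the first 1000 were. The highest TWIST2-only region, on chromosome 7 from 140281272 to 140281510, ranked 24 of all TWIST2 regions, at the 99.98 percentile of replicate 1 and 99.95 of replicate 2. Its nearest H3K27ac peak lay 12150 and 11946 bp away in the KD libraries and 9533 and 12012 bp away in the control libraries. Its nearest MYOD peak lay 12762 to 12810 bp away in all 4 libraries. SMARCA4 lay 59426 and 39687 bp away in the KD libraries, against 12694 and 12601 bp in the control libraries. SMARCA4 was nearer in both control than in either KD library here, which was so for 23.6% of TWIST2-only regions and 23.9% of all TWIST2 regions.

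The next TWIST2-only region by list position lay on chromosome 8 from 127852798 to 127853037 and was close to an H3K27ac peak in all 4 libraries. H3K27ac began 536 and 464 bp away in the KD libraries and 325 and 1173 bp away in the control libraries. MYOD lay 6923 and 6969 bp away in KD and 6503 and 6477 bp in control libraries. SMARCA4 lay 281497 and 6697 bp away in KD and 6054 and 997 bp in control libraries.

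The other 3 of the 5 highest-listed regions lay on chromosomes 18, 10 and 2. The region on chromosome 18 from 72497593 to 72497874 had MYOD 5664 and 5932 bp away in the KD libraries, against 11515 and 11399 bp in the control libraries. H3K27ac lay 5349 and 5234 bp from it in KD and 5519 and 10470 bp in control libraries. The region on chromosome 10 from 100083112 to 100083367 had H3K27ac 13600 and 13665 bp away in KD and 26285 and 26246 bp in control libraries, while MYOD lay 2045 to 2259 bp away in all 4. The region on chromosome 2 from 226963844 to 226964205 had MYOD 19131 and 15659 bp away in KD and 50335 and 50320 bp in control libraries. Its H3K27ac peaks lay 14777 and 14765 bp away in KD and 15921 and 15113 bp in control libraries. An H3K27ac peak nearer in both KD than in either control library was common: it was found at 55.5% of TWIST2-only regions and 37.8% of all TWIST2 regions, with no minimum size of the gap. For MYOD the shares were 37.7% and 27.1%. The opposite pattern, nearer in both control than in either KD library, was found for H3K27ac at 18.8% of TWIST2-only and 11.9% of all TWIST2 regions, and for MYOD at 11.4% and 9.55%. SMARCA4 was nearer in both KD libraries at 13% of TWIST2-only and 11.4% of all TWIST2 regions. Regions that overlap a peak in several libraries have no gap to compare, which lowers the share over all TWIST2 regions, and the KD lists of both antibodies were longer. Nothing is read from the 5 named regions in this respect.

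TWIST2-only regions were found on all 23 chromosomes that held TWIST2 regions. The share ran from 25.4% to 42.7% with a median of 38.4%. It was lowest on chromosome 19, where 333 of 1309 TWIST2 regions were TWIST2-only (25.4%, 95% Wilson interval 23.2 to 27.9). Chromosome 16 followed with 31.4% (29.1 to 33.8) and chromosome 22 with 32.7% (29.9 to 35.7). The highest shares were 42.7% (41.0 to 44.4) on chromosome 3, 41.5% (38.2 to 44.9) on the X chromosome and 41.5% (39.0 to 44.1) on chromosome 20. Over the 23 chromosomes, the TWIST2-only share and the number of TWIST2 regions for each H3K27ac region had a Spearman correlation of 0.506. Chromosome 19 held 0.676 TWIST2 regions for each H3K27ac region and chromosome 20 held 1.01. The X chromosome went against this, with the lowest ratio of 0.579 and one of the high TWIST2-only shares. In number, chromosome 2 carried 1776 TWIST2-only regions, 9.54% of all, and chromosome 1 carried 1727.

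**Figure D2:**
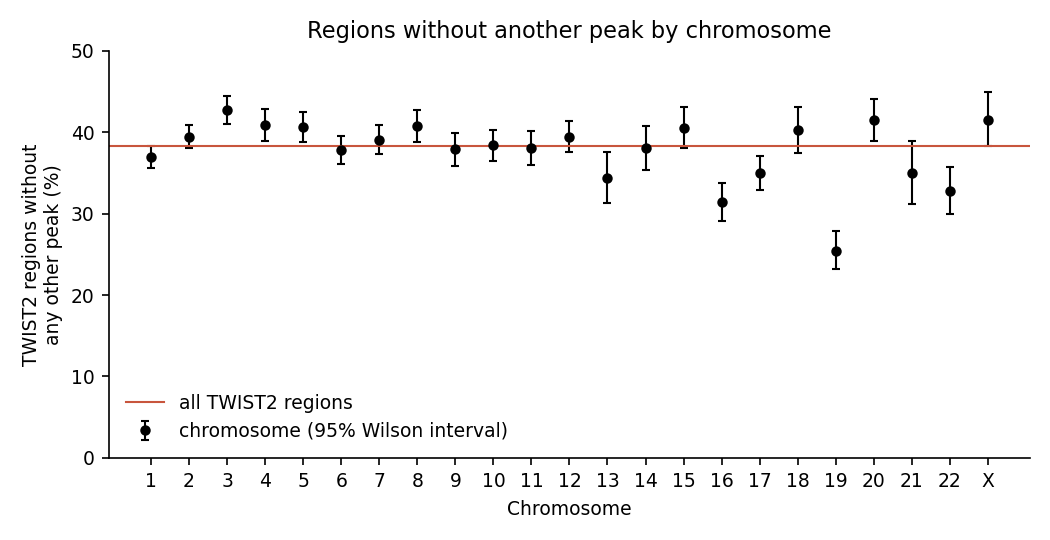
Share of TWIST2 regions without any other peak (y axis, percent) on each chromosome (x axis), with 95% Wilson intervals, and the line of all TWIST2 regions at 38.3%. Chromosome 19 lies lowest at 25.4% and chromosome 3 highest at 42.7%.

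As a class, TWIST2-only regions were spaced more widely than marked regions, and they tended to have one another as neighbours. The wider spacing did not hold for TWIST2-only regions within 10 kb of another peak, whose values are given further below. The nearest other TWIST2 region of any kind lay a median of 14254 bp from a TWIST2-only region and 11069 bp from a marked one. Within 10 kb there was another TWIST2 region for 38.3% of TWIST2-only regions (95% Wilson interval 37.7 to 39.05) and for 46.1% of marked ones (45.6 to 46.7). Within 1 kb the shares were 4.08% and 8.13%. TWIST2 regions with H3K27ac in all 4 libraries and no MYOD were the most crowded of the classes compared, with 52.2% within 10 kb and 15.7% within 1 kb. Those with both marks in all 4 libraries had 50.1% and 9.08%. The nearest TWIST2 neighbour was TWIST2-only for 8860 TWIST2-only regions (47.6%) and for 9289 marked regions (31.0%), where TWIST2-only regions made up 38.3% of the whole.

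List position moved with this spacing, so the classes were also set side by side within deciles of mean list position. TWIST2-only regions had a TWIST2 neighbour within 10 kb less often than marked regions in 10 of 10 deciles, by 0.95 to 6.55 percentage points. In the lowest decile the shares were 26.6% and 31.9%, and in the highest 54.8% and 55.7%. A TWIST2-only nearest neighbour was more frequent for TWIST2-only than for marked regions in 10 of 10 deciles and on 23 of 23 chromosomes. In the highest decile it was 46.6% for TWIST2-only and 26.65% for marked regions. The state of a neighbour was set by the same peak lists that chose the regions. A peak that overlaps neighbouring TWIST2 regions bars them together, and its part in these shares was not tested. They are a description only. The lower crowding of TWIST2-only regions held on 22 of 23 chromosomes, all but chromosome 21, where 45.7% of TWIST2-only and 45.5% of marked regions had a neighbour within 10 kb.

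**Figure D3:**
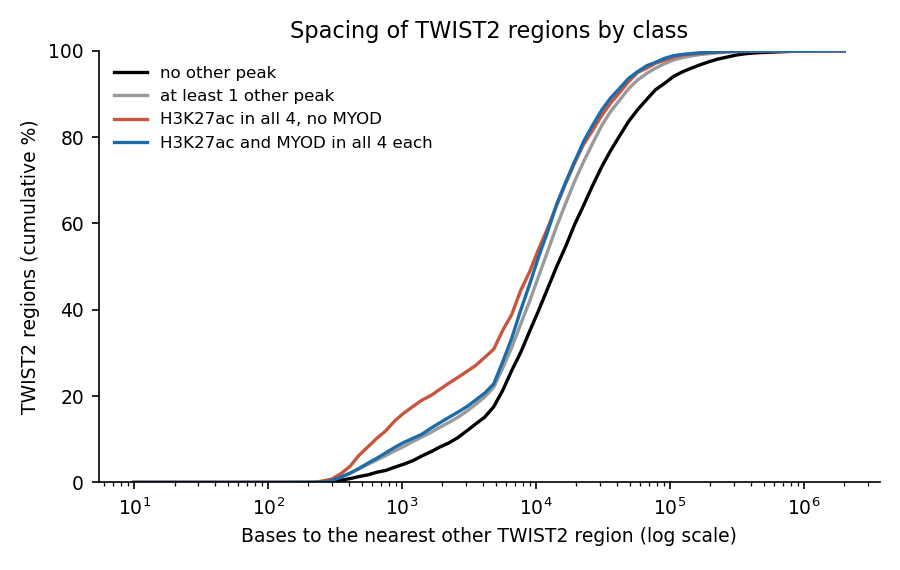
Cumulative share of TWIST2 regions (y axis, percent) whose nearest other TWIST2 region lies within a given number of bases (x axis, log scale), for TWIST2-only regions (no other peak), marked regions and both H3K27ac classes. At 10 kb the TWIST2-only curve stands at 38.3% and the marked curve at 46.1%.

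The spacing carried a step at 5000 bp in both classes. Neighbouring Ty1 peaks 4000 to 5000 bp apart, centre to centre, numbered 1649 in replicate 1 and 1693 in replicate 2, against 2845 and 2722 at 5000 to 6000 bp. For TWIST2-only regions the nearest TWIST2 region lay 4000 to 5000 bp away in 667 cases and 5000 to 6000 bp away in 876, and for marked regions in 1095 and 1589. The SMARCA4 headers state that a peak had to exceed the surrounding 10000 bp by 4-fold, which reaches 5000 bp to either side. Whether the Ty1 lists were filtered in this way is not stated, and its part in the spacing was not tested.

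Dense runs of TWIST2-only regions were rare. Joining TWIST2-only regions at most 10 kb apart gave 16608 runs, of which 14854 were single regions (79.8% of all TWIST2-only regions). Pairs numbered 1535, runs of 3 numbered 187, and 25 runs held 4. The runs with the most members held 6 TWIST2-only regions each. The first lay on chromosome 4 from 15329679 to 15364496, a span of 34818 bp with 0 peaks of the other antibodies and its H3K27ac neighbours 106755 to 141305 bp away. The second, on chromosome 11 from 35385529 to 35420108, held 0 other peaks too, and its nearest H3K27ac peaks lay 26389 to 60704 bp away. The 3 next runs, with 5 members each, lay on chromosome 2 (64566184 to 64587561), chromosome 3 (130086912 to 130105898) and chromosome 7 (107707083 to 107727187). The runs on chromosomes 2 and 3 held 0 other peaks, and the run on chromosome 7 spanned 1 MYOD region. The run on chromosome 7 reached within 224 bp of an H3K27ac peak, whereas the run on chromosome 3 stayed 213765 bp or more from any.

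On a larger scale, a few stretches without an H3K27ac peak held many TWIST2-only regions. The H3K27ac regions merged over all 4 libraries left 55881 stretches between neighbours on the same chromosome, with a median length of 13578 bp, and 11261 of these (20.2%) held a TWIST2-only region. Stretches with 5 or more TWIST2-only regions numbered 474 and held 3239 of them (17.4%). The stretch on chromosome 7 from 51435052 to 54825591 spanned 3390540 bp and held 20 TWIST2-only regions and 1 marked one. It had 31 Ty1 peaks in replicate 1 and 23 in replicate 2, and 0 H3K27ac peaks in any library. MYOD peaks in it numbered 2 and 1 in the KD and 1 and 1 in the control libraries, and SMARCA4 peaks 2 and 3 in the KD libraries, against 1 and 3 in the controls. Knockdown and control lists both held 3 or fewer peaks of any antibody in this stretch.

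The stretch on chromosome 20 from 37679106 to 39597350 held 20 TWIST2-only and 0 marked regions over 1918245 bp. It had 30 and 32 Ty1 peaks. Its MYOD peaks numbered 1 and 1 in KD libraries against 1 and 2 in control libraries, and its SMARCA4 peaks 1 and 1 against 0 and 1. A stretch on chromosome 7 from 40175618 to 41926132 held 19 TWIST2-only and 3 marked regions. Its MYOD peaks numbered 5 and 3 in KD and 2 and 3 in control libraries. Chromosome 20 from 11900828 to 13434762 also held 19 TWIST2-only regions, a median of 10074 bp from the next, with 2 marked ones. Its MYOD peaks numbered 2 and 2 in KD and 2 and 3 in control libraries. Chromosome 5 from 9048244 to 10229756 held 17 TWIST2-only regions and 1 marked one, at 14.4 TWIST2-only regions per Mb. Its MYOD peaks numbered 3 and 3 in KD and 1 and 0 in control libraries. MYOD peaks thus had no common direction over these 5 stretches, which were chosen by their number of TWIST2-only regions. A choice by number favours long stretches. Their density ran from 5.90 TWIST2-only regions per Mb in the first stretch on chromosome 7 to 14.4 per Mb on chromosome 5.

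The density of TWIST2-only regions was lowest in the longest stretches. Stretches of 1 Mb or more between H3K27ac regions numbered 359, of which 32 had no TWIST2-only region, and they held 1528 TWIST2-only regions, 2.24 per Mb. Stretches of 100 kb to 1 Mb held 6968 (6.26 per Mb), those of 10 to 100 kb held 9295 (10.2 per Mb), and those under 10 kb held 802 (8.25 per Mb). No correction was made for parts of the genome to which reads cannot be mapped. Densities of marked regions by stretch length are not given here, so the fall is not read as particular to TWIST2-only regions.

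Other peaks were within 10 kb of 53.4% of TWIST2-only regions. The nearest peak of any of the 3 antibodies, in any library, was a median of 8884 bp away. It lay within 1 kb for 1988 TWIST2-only regions (10.7%), at 1 to 10 kb for 7963 (42.8%), at 10 to 100 kb for 7339 (39.4%) and beyond 100 kb for 1332 (7.15%). By antibody, the median distance was 11966 bp to a MYOD peak, 17019 bp to an H3K27ac peak and 20295 bp to a SMARCA4 peak. The nearest peak was H3K27ac for 9305 TWIST2-only regions (49.97%), MYOD for 6149 (33.0%) and SMARCA4 for 3157 (17.0%). H3K27ac peaks vary in width while MYOD and SMARCA4 peaks have 1 fixed width per list, and the lists differ in length. The part of these properties in the order of the antibodies was not tested.

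**Figure D4:**
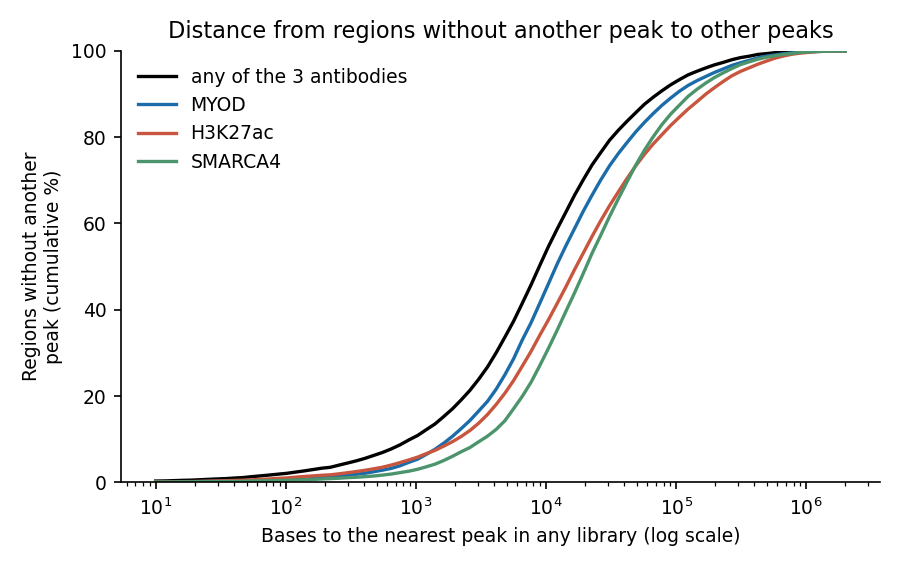
Cumulative share of TWIST2-only regions (y axis, percent) with a peak of MYOD, H3K27ac, SMARCA4 or any of the 3 antibodies within a given number of bases (x axis, log scale), over all libraries. At 10 kb the curves stand at 53.4% for any antibody, 44.8% for MYOD, 36.8% for H3K27ac and 29.9% for SMARCA4.

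Ty1 list position declined with distance from other peaks. TWIST2-only regions within 1 kb of another peak had a median percentile of 60.95 in Ty1 replicate 1 and 59.3 in replicate 2. At 1 to 10 kb the medians were 54.5 and 52.5, at 10 to 100 kb 44.5 and 41.3, and beyond 100 kb 38.9 and 35. The top 10% of the Ty1 lists took in 12.5% and 12.8% of the nearest class and 4.13% and 3.98% of the farthest. A TWIST2 region of any kind lay within 10 kb for 51.7% of the nearest class and 54.1% of that at 1 to 10 kb. The share was 21.45% at 10 to 100 kb and 17.3% beyond 100 kb, against 46.1% for marked regions. A marked neighbour overlaps another peak, so TWIST2-only regions beyond 10 kb of other peaks could hardly have one within 10 kb. Another TWIST2-only region within 10 kb was found for 16.7% of the nearest class, 20.55% and 21.4% of the middle ones and 17.3% of the farthest.

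The TWIST2-only regions farthest from H3K27ac lay over 1 Mb away from it. Of the 5 TWIST2-only regions farthest from H3K27ac, 4 were on chromosome 8 between 113628759 and 114558971. The farthest, on chromosome 8 from 113895187 to 113895450, was 1985586 and 1985468 bp from H3K27ac in the KD libraries and 1987255 and 1987291 bp in the control libraries. The list positions of the 5 regions spread from 11.96 to 52.2 in Ty1 replicate 1 and from 5.09 to 73.1 in replicate 2, on both sides of the medians of TWIST2-only regions. The remaining one, on chromosome 16 from 60852433 to 60852671, lay 2083860 and 2083868 bp from H3K27ac in KD and 2083860 and 1908222 bp in control libraries, and 1522257 bp from any other TWIST2 region. SMARCA4 control replicate 2, the longest SMARCA4 list, had a peak 126517 bp from it. The other SMARCA4 lists had none within 1 Mb, the nearest being 1913214 bp away in KD replicate 2. In all, 77 TWIST2-only regions were over 1 Mb from any H3K27ac peak and 16 over 1 Mb from any peak of the 3 antibodies.

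In the KD libraries more TWIST2-only regions had an H3K27ac or MYOD peak nearby than in the control libraries, and the KD lists were longer. The same lists chose the regions, so these values are a description and no test is given. An H3K27ac peak was found within 10 kb of 32.0% and 31.2% of TWIST2-only regions in the KD libraries, against 24.8% and 23.4% in the control libraries. The KD mean was 31.6% ± 0.54 and the control mean 24.1% ± 1.04 (SD, n = 2 each). The median distance was 20888 ± 369.5 bp in KD and 30836 ± 1420 bp in control libraries. A MYOD peak lay within 10 kb of 34.5% and 32.7% of TWIST2-only regions in KD and 27.4% and 27.05% in control libraries. For MYOD the KD mean was 33.6% ± 1.30 and the control mean 27.2% ± 0.24 (SD, n = 2 each). The size of the difference moved with the lists that barred regions. For H3K27ac it was 7.52 percentage points with all lists, 15.02 when control lists alone barred a region and 6.07 when KD lists alone did. For MYOD it was 6.39, 13.4 and 4.00 percentage points in the same order.

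The same direction held over all TWIST2 regions, of which 63.8% and 62.8% had H3K27ac within 10 kb in KD libraries, against 54.2% and 52.4% in control libraries. For MYOD the shares over all TWIST2 regions were 65.0% and 63.1% in KD libraries and 57.3% and 57.1% in control libraries.

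The length of the lists moved with these shares. H3K27ac lists held 48022 and 46822 peaks in KD libraries, against 36679 and 34932 in control libraries. MYOD lists held 52510 and 48003 in KD libraries, against 44974 and 43381 in control libraries. When each list of an antibody was shortened from its end to the shortest of the 4, an alternative chosen after the data had been seen, the H3K27ac shares were 24.4% and 24.5% in KD and 23.8% and 23.4% in control libraries. Their difference became 0.862 percentage points. The MYOD shares became 28.9% and 29.7% in KD and 26.5% and 27.05% in control libraries, a difference of 2.55 percentage points (n = 2 each). Both differences kept their direction. The regions themselves stayed those chosen with the full lists, and the cut followed raw list order without averaging within blocks. The order of the H3K27ac and MYOD lists is not explained in the files, and the part of list length in the differences was not tested further.

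With all peaks of each list, SMARCA4 showed no common direction around TWIST2-only regions. A SMARCA4 peak lay within 10 kb of 10.2% and 12.5% of TWIST2-only regions in the KD libraries and of 9.48% and 17.9% in the control libraries (n = 2 each). The control libraries spread on both sides of the KD libraries. The high value belonged to control replicate 2, whose list of 25013 peaks was the longest, against 12518 and 14676 in KD and 11835 in control replicate 1. Without control replicate 2, the difference between KD and control, -2.33 percentage points over all 4 libraries, was 1.85. With lists of equal length it was 1.15 percentage points. The shares were then 9.70% and 10.1% in KD and 9.48% and 8.055% in control libraries, so both KD libraries lay above both control libraries.

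**Figure D5:**
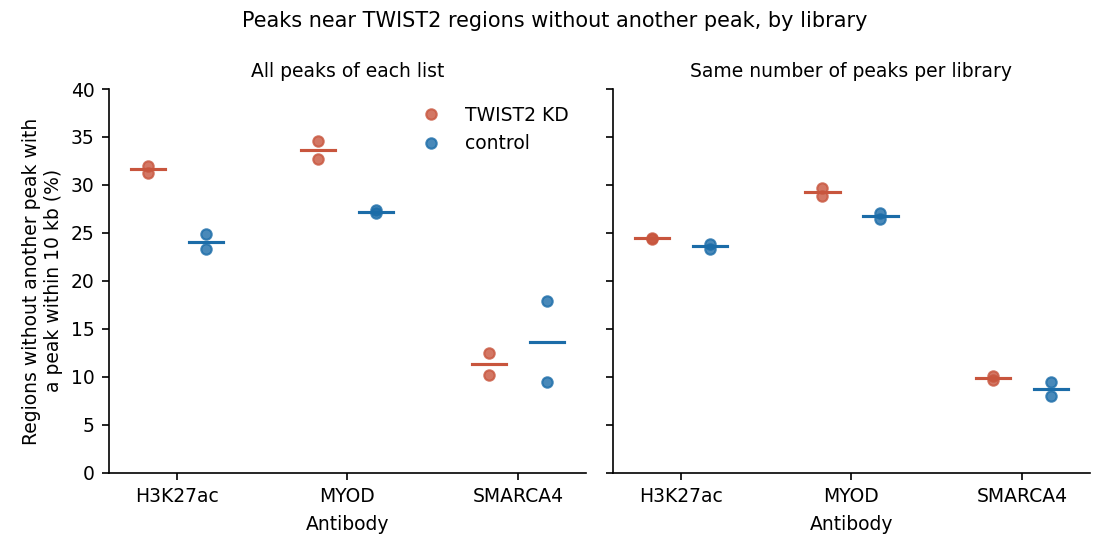
Share of TWIST2-only regions with a peak within 10 kb (y axis, percent) in each TWIST2 KD library (left, red) and control library (right, blue) for 3 antibodies, with group means as lines. With all peaks (left panel) H3K27ac stands at 31.6% in KD and 24.1% in control, and with lists of equal length (right panel) at 24.5% and 23.6%.

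Some TWIST2-only regions had a neighbouring peak in 1 group only. An H3K27ac peak within 10 kb was present in both KD and neither control library at 1303 TWIST2-only regions (6.997%), and in both control and neither KD library at 264 (1.42%). Over all TWIST2 regions the shares were 9.03% and 1.49%. For MYOD the numbers were 944 (5.07%) and 239 (1.28%), against 5.78% and 1.43% of all TWIST2 regions. For SMARCA4, 193 TWIST2-only regions (1.04%) had the KD pattern and 414 (2.22%) the control pattern, against 1.9% and 5.07% of all TWIST2 regions. The shares of TWIST2-only regions were below those of all TWIST2 regions for each antibody and in both directions. A peak that overlaps a region counts as within 10 kb too, and the rule barred such overlaps from TWIST2-only regions alone. The lower shares are therefore not read as a trait of TWIST2-only regions. Most TWIST2-only regions had no peak within 10 kb in any of the 4 libraries of an antibody: 63.2% for H3K27ac, 55.2% for MYOD and 70.06% for SMARCA4, against 11.7%, 4.83% and 26.0% of marked regions, whose overlap with such peaks the rule itself set.

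H3K27ac regions of all classes lay next to TWIST2-only regions. The nearest H3K27ac region was present in all 4 libraries for 45.2% of TWIST2-only regions, in both KD and neither control library for 21.8%, and in both control and neither KD library for 4.301%. Among all H3K27ac regions these classes made up 49.1%, 19.8% and 4.21%. Restricted to the 6844 TWIST2-only regions with H3K27ac within 10 kb, the shares were 44.8%, 20.6% and 4.73%. The median distance to the nearest H3K27ac region was taken within each class of that region. It was 17485 bp where the nearest region was found in all 4 libraries and 18130 bp where it was in both KD and neither control library. Where it was in both control and neither KD library the median was 14649 bp, and for all remaining patterns 15918 bp. These are not distances from all TWIST2-only regions to each class.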

How the data were processed

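Of 24 samples, 14 had a peak list and were analysed, and the 10 input samples were not used. Per the submitters' processing notes, HOMER 4.4, bedtools 2.29.2, Bowtie2 2.3.4.3 and SAMtools 0.1.19 were used with builds GRCh37 and hg19. The deposited Ty1, MYOD and H3K27ac lists give positions only, so their depth is unknown. The deposited SMARCA4 lists also hold the authors' normalized tag signal and HOMER score per peak, used here only for order within a list. Per the file headers, SMARCA4 peaks passed a false discovery rate of 0.001 and 4-fold over input, from 36095336 to 46690705 tags per library. Overlaps meant at least 1 bp, and distances are bases between edges. Regions were named by fixed rules of distance, number and list position. The TWIST2-only regions and all rules were chosen with earlier results of these data known. Gene distances and sequence motifs were planned and are not analysed here for want of an hg19 reference. Calculations used Python 3.11.15, numpy 2.4.6 and pandas 2.3.3, and plots matplotlib 3.10.9. The code was tested on simulated lists and recovered 100% of 5997 planted TWIST2-only regions.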

Additional observations from a re-analysis of the deposited data

How the results depend on the processing

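The number of TWIST2-only regions, 18622, became 43985 when a peak in either Ty1 library was enough. It was 7694 with the upper 0.5 of each Ty1 list, a setting chosen after the data had been seen, and 18698 to 32788 with 1 library left out. The high values came without Ty1 replicate 1 (30138) or 2 (32788), which by construction admits peaks found once. The TWIST2-only share of 38.3% was 38.9% when Ty1 peaks had to overlap by 0.5 of the shorter, 34.2% when another peak within 1000 bp barred a region, 56.7% with the upper 0.5 of the other lists, 50.03% with control lists alone, 42.7% with KD lists alone, 45.5% with either Ty1 library, 28.3% with the upper 0.5 of the Ty1 lists, and 38.5% to 44.3% with 1 library left out. The share with a TWIST2 neighbour within 10 kb, 38.3%, was 36.2% with the Ty1 overlap of 0.5, 36.8% with the 1000 bp bar, 39.1% with the upper 0.5 of the other lists, 39.2% with control lists alone, 58.85% with either Ty1 library, 35.4% with the upper 0.5 of the Ty1 lists, and 38.3% to 49.4% with 1 library left out. Neighbours lay within 1000 bp for 4.08% and within 100000 bp for 93.5%. The median distance to H3K27ac, 17019 bp, was 19420 bp with the 1000 bp bar, 35214 bp with the upper 0.5 of the other lists, 12114 bp with control lists alone, 15601 bp with KD lists alone, 17849 bp with either Ty1 library, 12725 bp with the upper 0.5 of the Ty1 lists, and 16870 to 18189.5 bp with 1 library left out.

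The KD minus control difference within 10 kb was set against 25 alternatives, some of them at other distances. It kept its sign in 25 of 25 for H3K27ac (0.862 to 15.02 percentage points) and for MYOD (1.11 to 13.4). The MYOD value of 1.11 belongs to a distance of 1000 bp. At 10 kb the lowest MYOD value was 2.55, with lists of equal length. The 25 also include the replicate block and the removal of libraries of other antibodies. Without 1 MYOD or SMARCA4 library the H3K27ac difference was 7.47 to 7.57. The count of 25 therefore does not stand for separate checks. For SMARCA4 the difference turned in 2 of 25, to 1.15 with lists of equal length and to 1.85 without control replicate 2. Leaving out 1 library gave -6.49 to 1.85. With the replicate number as a block, the differences were 7.52, 6.39 and -2.33, unchanged by construction. The labels do not say that numbers pair cultures. The planned permutation tests are not used, because the lists compared also chose the regions, and with 2 against 2 libraries none can pass 0.05. The depth of 10 lists is unknown, so H3K27ac or MYOD signal below the peak threshold could not be assessed.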
